A study of Mus musculus with 13 samples.

Results

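The desmosome genes described here are 10 genes that encode parts of the desmosome, Dsg2, Dsg3, Dsc2, Dsc3, Jup, Pkp1, Pkp2, Pkp3, Dsp and Perp, taken by their symbols from the 15213 genes of the RNA-sequencing table. All 10 were listed. The table covered 10 mammary tumors of 6 transgenic females, MMTV-tTA TetO-Tsg101 (genotype MtTA Teto-TSG101wt in the labels), and the mammary glands of 3 wild-type FVB females. In the tumor-bearing females, the mammary tumor virus promoter drives the tetracycline-controlled transactivator tTA. Without doxycycline, tTA turns on a TetO transgene for TSG101 in the mammary epithelium. The paper finds tTA active in luminal cells of ducts that lack the TSG101 transgene, and its reporter also in basal cells of the carcinomas. The methods describe 1 founder line chosen for molecular work, and the glands carried no transgene. A single tumor was taken from each of 3 females, 2 tumors from each of 2 others and 3 tumors from the last, so not every tumor was independent. Age and reproductive stage are not given in the labels.

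Desmosomes are patches of adhesion that join neighboring epithelial cells and anchor their keratin filaments. Their cadherins, the desmogleins (Dsg) and desmocollins (Dsc), bind across the gap between cells. Plakoglobin (Jup) and the plakophilins (Pkp) hold the cadherin tails, and desmoplakin (Dsp) ties this plaque to keratin. Perp is a membrane protein that desmosomes of stratified epithelia need. Dsg2, Dsc2 and Pkp2 are known from simple epithelia, and Dsg3, Dsc3 and Pkp1 from stratified epithelia such as the epidermis. Mammary ducts hold a luminal and a basal cell layer.

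Promoter sequences from RefSeq (GRCm38.p6) were at hand for 2 of the 10 members, Dsp and Jup. They are shown because the encoded plaque proteins bind each other and their ratio differed between tumors and glands, as described further on. Each window runs 5′ to 3′ on the strand of the gene, across the start of the gene. The Dsp window holds 250 bases before the start of the annotated gene and 50 inside it, and the Jup window 201 before and 99 inside. Capitals mark matches, on either strand, to GGGCGG (the GC box of SP1 and its relatives), CCAAT (the box of the factor NF-Y), TATAAA (the core promoter element), an AP-1 site (TGANTCA), the E-box of ZEB and Snail factors (CACCTG) or a grainyhead site (AACCGGTT). The Dsp window lies at chr13:38151044-38151343 on the plus strand and the Jup window at chr11:100397741-100398040 on the minus strand.
Dsp: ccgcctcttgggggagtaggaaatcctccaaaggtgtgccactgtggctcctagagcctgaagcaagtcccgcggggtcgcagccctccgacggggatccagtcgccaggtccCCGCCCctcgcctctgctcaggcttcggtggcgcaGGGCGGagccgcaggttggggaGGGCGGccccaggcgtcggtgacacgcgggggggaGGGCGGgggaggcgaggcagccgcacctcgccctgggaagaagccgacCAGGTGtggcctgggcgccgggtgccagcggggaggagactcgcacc
Jup: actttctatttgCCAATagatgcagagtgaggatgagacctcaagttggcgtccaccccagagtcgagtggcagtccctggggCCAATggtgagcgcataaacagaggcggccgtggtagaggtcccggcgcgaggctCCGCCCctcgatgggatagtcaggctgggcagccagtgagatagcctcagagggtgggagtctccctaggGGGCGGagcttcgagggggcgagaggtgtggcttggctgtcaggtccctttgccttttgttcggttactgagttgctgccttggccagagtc

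The Dsp window held 4 GC boxes, which began 137, 102, 80 and 45 bases before the start, and 1 E-box that began 3 bases after it. The Jup window held 2 GC boxes, which began 63 bases before the start and 7 bases after it, and 2 CCAAT boxes, which began 189 and 118 bases before it. Among 32851 promoter windows of the same length, 35.7% held a GC box, 37.4% a CCAAT box, 20.2% an E-box of this kind, 13.6% the element TATAAA, 7.81% an AP-1 site and 0.146% a grainyhead site. The last 3 were not found in either window. GC content was 73.0% in the Dsp window and 60.7% in the Jup window, beside a median of 52.7% over all windows. These matches describe letters and not occupied sites.

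Levels are given in normalized cpm, the deposited unit, in which reads per gene are divided by an effective library size. The tumors held between 6176269 and 16835397 reads and the glands between 11672487 and 23889042. Tsg101 transcripts were at 66.5 ± 15.5 normalized cpm in the tumors (SD, n = 10) and 53.2 ± 7.68 in the glands (SD, n = 3), and the fitted difference did not pass the test (log2 fold change 0.30, SE 0.20, adjusted p = 0.296, limma). Reads of the transgene and of the endogenous gene both count toward this value. By immunoblot, the paper reports more tagged TSG101 protein in most tumors than in normal glands of the transgenic females. That is a measure of protein and not of RNA. Gland 3 stood apart from the other 2 glands by a lower level of epithelial genes, with a sum of 1318 normalized cpm over 12 epithelial markers against 2045 in gland 1 and 2937 in gland 2, and by more adipocyte transcripts, with a sum of 11578 over 10 markers against 4288 and 4711. The labels name 2 sequencing sites, UNMC and Novogene, without saying which libraries came from which, so no batch could be assigned. GC-rich genes were read at lower levels relative to the mean of the group in tumors 1, 5 and 9 and in gland 3, with slopes of -0.37, -0.18, -0.44 and -0.35 on the log2 scale per 10 points of GC content. Among the other libraries, tumor 10 had a slope of -0.051 and the rest had rising slopes. Milk transcripts, which luminal cells make, were highest in gland 3. Their sum over 7 genes was 165034, 190125 and 305121 normalized cpm in glands 1, 2 and 3, and between 1384 and 76623 in the tumors. In tumor 9, 27.4% of the reads came from the ribosomal RNA precursor Rn45s.

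Of the 10 desmosome genes, 7 were called higher in the tumors than in the glands, and 0 were called lower. A gene was called at an adjusted p under 0.05 and a change of more than 2-fold (limma on log2(normalized cpm + 1), Benjamini-Hochberg over 11795 genes past a filter on low values). Over all genes tested, 10.2% were called higher and 6.99% lower. Genes over 5 normalized cpm in the glands alone cannot pass the filter and are not in these shares, whereas genes over it in the tumors alone can be. At an unadjusted p under 0.05, limma put 1 member lower, Pkp2, and edgeR and DESeq2 on the recovered reads called 0 lower as well. The 7 genes were Dsg3, Dsp, Pkp1, Dsc3, Perp, Dsc2 and Pkp3, and the other 3 were Jup, Dsg2 and Pkp2. The median log2 fold change of the 10 members was 3.13, beside 0.01 over all genes tested. The same 7 genes were those for which all 10 tumors lay above all 3 glands, a pattern that 10.7% of the genes tested shared, whereas 8.53% had all tumors below all glands. All 10 members passed the filter. Dsg3 passed through the tumors alone, so that it had to differ, and 6 of the other 9 were called higher. Whether a level in these bulk samples differed through the number of cells that express a gene or through RNA per cell cannot be told apart.

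**Figure D1:**
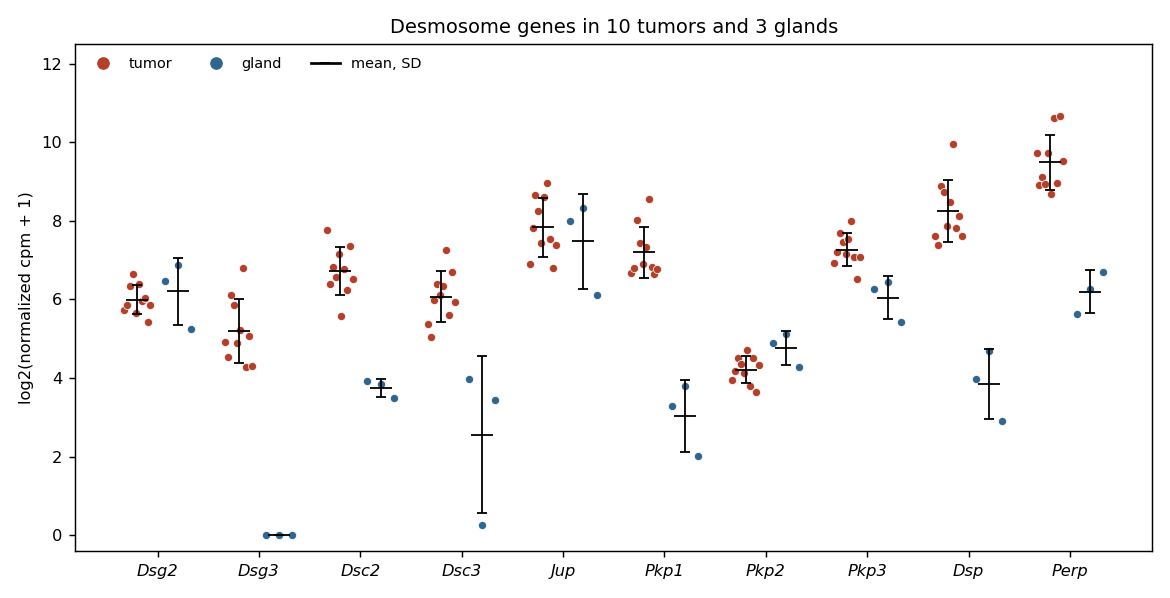
Levels of the 10 desmosome genes as log2(normalized cpm + 1), with 1 point for each of the 10 tumors (red) and 3 glands (blue) and bars for the mean and SD. The tumors and glands do not overlap for Dsg3, Dsc2, Dsc3, Pkp1, Pkp3, Dsp and Perp, and they overlap for Dsg2, Jup and Pkp2.

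The desmogleins differed from each other. Dsg2 (Entrez 13511; GRCm38.p6 chromosome 18, 20558074 to 20604526), the desmoglein of simple epithelia, was at 42.1 normalized cpm in the lowest tumor, at a median of 59.1 and at 99.5 in the highest tumor, and at 87.9, 117 and 37.3 in glands 1, 2 and 3. All 10 tumors lay within the range of the glands. The log2 fold change was -0.22 (95% interval -0.86 to 0.43, adjusted p = 0.639, limma). Dsg3 (Entrez 13512; chromosome 18, 20510274 to 20541310), a desmoglein of the deeper layers of stratified epithelia, ranged from 18.5 to 109 normalized cpm in the tumors, with a median of 31.0. It had 0 reads in each of the 3 glands, which allows up to 0.128, 0.155 and 0.366 normalized cpm in glands 1, 2 and 3 (3 reads per library, counting error only). With the glands set to this limit, the tumor mean of 42.0 ± 28.7 (SD, n = 10) was at least 194-fold higher. The fitted change of Dsg3 depends on the pseudocount and is not given as a fold. The lowest tumor value, in tumor 8, rested on 157 reads, and the fewest reads in a tumor were 126, in tumor 10.

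Both desmocollins rose. Dsc2 (Entrez 13506; chromosome 18, 20030633 to 20059554), the desmocollin found in most epithelia, was at 46.9 normalized cpm in the lowest tumor, at a median of 101 and at 218 in the highest, and at 14.1, 13.4 and 10.2 in glands 1, 2 and 3. The lowest tumor stood more than 3 times as high as the highest gland. Its log2 fold change was 2.97 (SE 0.34, adjusted p = 1.72e-05, limma), a fold of 7.84. Dsc3 (Entrez 13507; chromosome 18, 19960930 to 20002410), a desmocollin of basal and stratified layers, ranged from 31.9 to 153 normalized cpm in the tumors, with a median of 65.2. The glands disagreed with each other for this gene, at 14.6, 0.207 and 9.87 normalized cpm in glands 1, 2 and 3, where the value of gland 2 came from 4 reads. The log2 fold change of Dsc3 was 3.51 (SE 0.60, adjusted p = 5.14e-04, limma), and 2.37 without gland 2 (adjusted p = 0.00148). Gland 2 also had the fewest lymphocyte transcripts of the glands. Their sum over 10 markers was 50.1 normalized cpm, against 766 and 773 in glands 1 and 3. The part of lymphocytes in the Dsc3 level was not tested.

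The desmosomal cadherin genes lie side by side on chromosome 18. From Dsc3 through Dsg2 the 8 listed genes span 0.644 Mb, in the order Dsc3, Dsc2, Dsc1, Dsg1a, Dsg1b, Dsg4, Dsg3 and Dsg2. Dsg3 and Dsg2 are 16.8 kb apart in the annotation, and Dsc3 and Dsc2 are 28.2 kb apart. Per kb of transcript, Dsg2 was at 14.0 normalized cpm in the glands and its neighbor Dsg3 at 0.

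Of the plaque proteins that bind cadherin tails, plakoglobin did not pass the test. Jup (Entrez 16480; chromosome 11, 100368856 to 100397839), which desmosomes share with adherens junctions, was at 110 normalized cpm in the lowest tumor, at a median of 205 and at 495 in the highest, and at 253, 322 and 67.8 in glands 1, 2 and 3. Of the 10 tumors, 3 lay above all glands and the others within their range. The log2 fold change of 0.36 had a 95% interval from -0.72 to 1.43 (adjusted p = 0.645, limma), which reaches past a 2-fold rise. Without gland 3, the gland that was lower in the sum of epithelial markers, the log2 fold change was -0.33.

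The plakophilins moved apart. Pkp1 (Entrez 18772; chromosome 1, 135871394 to 135919207), the plakophilin of suprabasal stratified layers, was at 99.7 normalized cpm in the lowest tumor, at a median of 116 and at 376 in the highest. In glands 1, 2 and 3 it was at 8.82, 12.9 and 3.05, so that each tumor lay well above each gland. The log2 fold change was 4.16 (SE 0.42, adjusted p = 4.94e-06, limma), a fold of 17.9. Pkp3 (Entrez 56460; chromosome 7, 141078229 to 141090511), which is present in both simple and stratified epithelia, ranged from 90.1 to 255 normalized cpm in the tumors, with a median of 144. In glands 1, 2 and 3 it was at 76.5, 86.0 and 41.8, of which glands 1 and 2 lay close below the lowest tumor. Its log2 fold change of 1.22 (SE 0.28, adjusted p = 0.00457, limma) came near the limit of 2-fold and was 0.91 without gland 3 (adjusted p = 0.031), where it was no longer called. Pkp2 (Entrez 67451; chromosome 16, 16213345 to 16272712), the plakophilin of simple epithelia and heart, was at 11.6 normalized cpm in the lowest tumor, at a median of 18.1 and at 25.3 in the highest, and at 28.8, 33.7 and 18.5 in glands 1, 2 and 3. Of the 10 tumors, 5 lay below the lowest gland and 0 above the highest. The log2 fold change was -0.55 (95% interval -1.04 to -0.06, adjusted p = 0.0898, limma), which did not pass the test. It was -0.79 without gland 3 (adjusted p = 0.0256, limma) and -0.59 with DESeq2 on the recovered reads (adjusted p = 0.0379), both short of a 2-fold change.

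Dsp (Entrez 109620; chromosome 13, 38151294 to 38198577), the plakin whose promoter is printed above, was at 167 normalized cpm in the lowest tumor, at a median of 253 and at 998 in the highest. In glands 1, 2 and 3 it was at 14.8, 24.6 and 6.46. The groups were far apart, with a log2 fold change of 4.40 (SE 0.48, 95% interval 3.38 to 5.42, adjusted p = 9.75e-06, limma), a fold of 21.1. Perp (Entrez 64058; chromosome 10, 18845071 to 18857073), a target of the transcription factors p53 and p63, ranged in the tumors from 407 to 1631 normalized cpm, with a median of 640. In glands 1, 2 and 3 it was at 48.1, 76.0 and 103, and here gland 3 was the highest of the glands and not the lowest. The log2 fold change was 3.29 (SE 0.41, adjusted p = 3.71e-05, limma), a fold of 9.79.

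**Figure D2:**
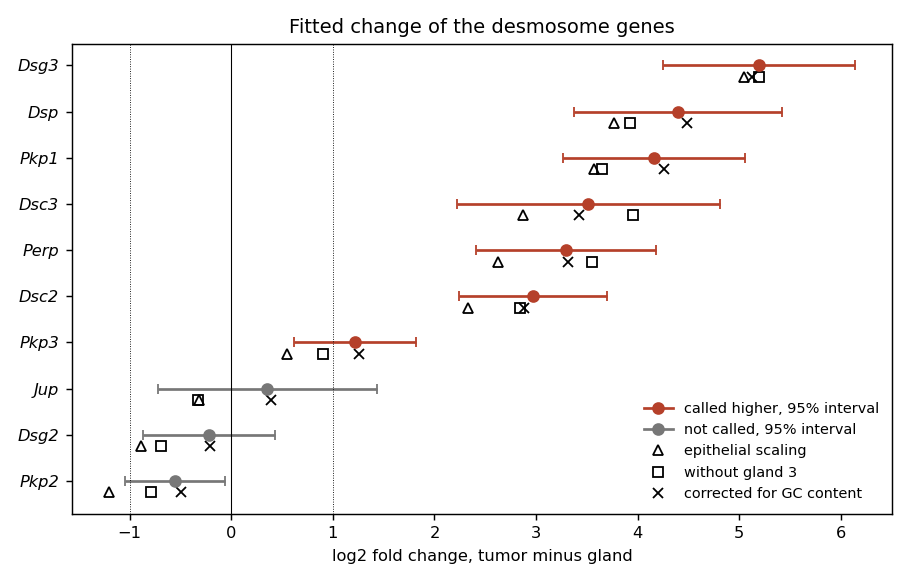
Log2 fold change of each member, tumor minus gland, with its 95% interval from limma (red, called higher; gray, not called), and below it the value with libraries scaled to epithelial genes (triangle), without gland 3 (square) and after correction for GC content (cross). Dotted lines mark a 2-fold change. Dsg3, Dsp, Pkp1, Dsc3, Perp and Dsc2 stay above 2 under each of the 3 alternatives, and Jup and Dsg2 stay within a 2-fold change. Pkp2 lies beyond the lower 2-fold line with epithelial scaling, at -1.20. The value of Dsg3 depends on the pseudocount, because the glands had 0 reads.

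Since adipocyte transcripts made up more of the glands than of the tumors, the fit was repeated with each library scaled to the mean log2 level of 12 epithelial genes, of which 3 (Krt7, Cldn4 and Elf3) were themselves called higher in the tumors. This moved the median over all genes from 0.01 to -0.64 in log2 fold change. Under this scaling, Pkp2 was called lower (log2 fold change -1.20, adjusted p = 6.28e-05, limma), and Pkp3 was no longer called (0.55, adjusted p = 0.0366). Dsg2 was at -0.88 in place of -0.22 (adjusted p = 0.000885, limma), short of a 2-fold change. Relative to the median of all genes, Pkp2 was at -0.56 and Pkp3 at 1.19, close to their values of -0.57 and 1.21 in the fit as deposited, and Dsg2 was at -0.25 in place of -0.23. The other 6 rises were called under it, with log2 fold changes between 2.33 for Dsc2 and 3.77 for Dsp in the 5 other than Dsg3, whose fitted value is set by the pseudocount. The share of higher calls among all calls was 59.3% as deposited, 17.2% with epithelial scaling and 79.0% with plain cpm, the reads over the library total and no further factor. In the last of these, the median of all genes was 0.33.

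Ratios between members of the same library depend little on its scaling where both levels are well above the pseudocount of 1, and 5 pairs were compared by a two-sided exact permutation of the 13 libraries (Benjamini-Hochberg over the 5 pairs, where 0.0035 is the smallest p that the design can give before adjustment). Of the 5 pairs, 4 gave that smallest p, with an adjusted p of 0.00437 each (0.0042 over the 6 pairs fixed for the test, which held Dsg3 against Dsg2), and all 10 tumors above all 3 glands. Pkp1 against Pkp2 had a mean log2 ratio of 2.98 ± 0.71 in the tumors (SD, n = 10) and of -1.73 ± 0.49 in the glands (SD, n = 3), a difference of 4.71. Pkp3 against Pkp2 differed by 1.77 and Pkp1 against Pkp3 by 2.94. The plakophilin ratios are linked, since any of them follows from the others, so these pairs are not independent tests. Dsg3 against Dsg2 is given with no test. With 0 reads of Dsg3 in the glands, its gland value is set by the pseudocount and the level of Dsg2 and is no measured ratio, with a difference of 5.41 at a pseudocount of 1 and of 7.38 at 0.25. Dsp against Jup had a mean log2 ratio of 0.42 ± 0.51 in the tumors (SD, n = 10) and of -3.62 ± 0.40 in the glands (SD, n = 3), a difference of 4.04. The remaining pair, Dsc3 against Dsc2, had a difference of 0.54 (adjusted exact permutation p = 0.538), with a gland SD of 2.06 that came from the 4 reads of Dsc3 in gland 2. Without gland 2 this difference was -0.65. With the tumors of a mouse averaged to 6 values, these 4 ratios differed with an adjusted exact permutation p of 0.0149 each (over the 5 pairs).

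**Figure D3:**
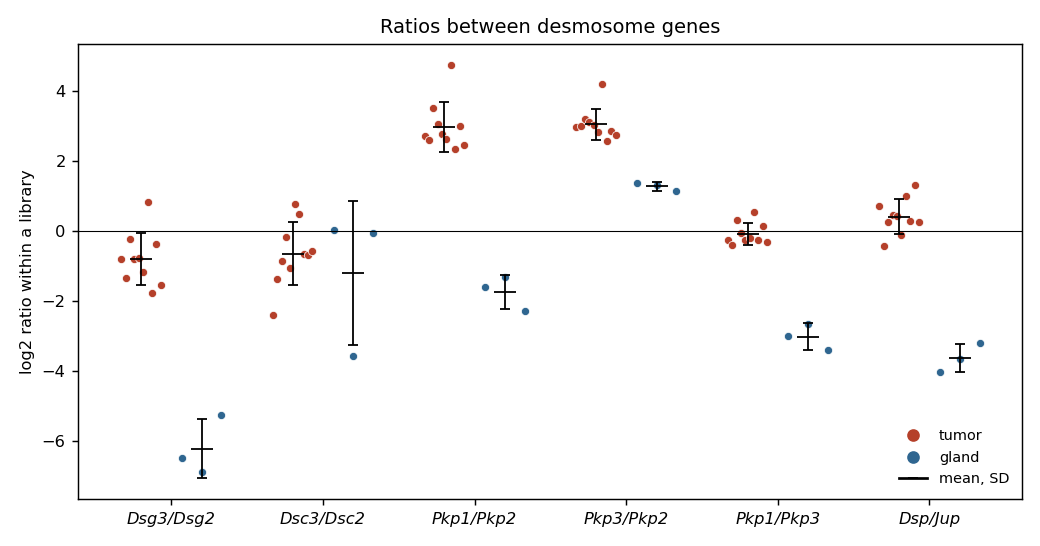
Log2 ratio between 2 desmosome genes within a library, on log2(normalized cpm + 1) values, with 1 point for each of the 10 tumors (red) and 3 glands (blue) and bars for the mean and SD. Tumors and glands are separate for every pair but Dsc3/Dsc2, and gland 2 lies at -3.57 in that pair. The gland values of Dsg3/Dsg2 rest on 0 reads of Dsg3 and the pseudocount.

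The makeup of each small family can be read as shares of its summed level per length of the longest annotated transcript. Among the plakophilins, Pkp1 took 34.9% ± 5.55 in the tumors (SD, n = 10) and 4.78% ± 1.63 in the glands (SD, n = 3), and Pkp2 took 6.96% ± 1.89 and 27.3% ± 2.07. Pkp3 held the largest share in both, at 58.1% ± 3.95 in the tumors and 67.9% ± 1.03 in the glands. Dsg3 took a mean of 35.2% of the sum of Dsg2 and Dsg3 in the tumors, between 20.9% in tumor 8 and 62.4% in tumor 7. Tumor 7 was the only tumor in which Dsg3 exceeded Dsg2. Dsc3 took a mean of 36.6% of the sum of Dsc2 and Dsc3 in the tumors, and exceeded Dsc2 in tumors 6 and 7, at 59.8% and 54.9%. In glands 1, 2 and 3 the share of Dsc3 was 47.3%, 1.32% and 45.6%, so that glands 1 and 3 lay above the mean of the tumors.

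**Figure D4:**
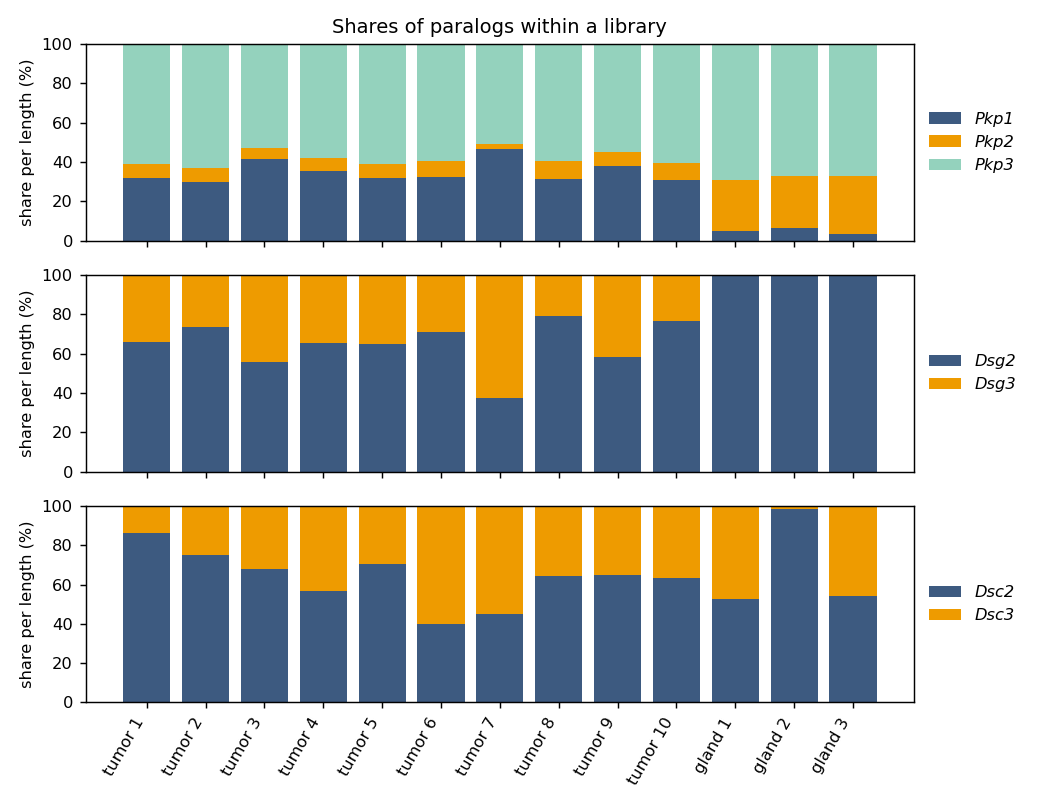
Shares of plakophilins (top), desmogleins 2 and 3 (middle) and desmocollins 2 and 3 (bottom) within each of the 13 libraries, as percent of the summed level per transcript length. Pkp1 lies between 29.7% and 46.7% in the tumors and between 3.06% and 6.30% in the glands. Dsg3 is present in every tumor and at 0 in each gland.

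On the same scale per kb of transcript, the order of the mean levels in the tumors was Perp, Jup, Pkp3, Dsp, Pkp1, Dsc2, Dsc3, Dsg2, Dsg3 and Pkp2, from 413 to 6.15 normalized cpm per kb. Perp was above Jup in 10 of 10 tumors, Jup above Pkp3 in 9, and Pkp3 above Dsp in 9. The neighbors Dsp and Pkp1, Dsc3 and Dsg2, and Dsg3 and Pkp2 were not separated, with the first above the second in 4, 5 and 4 of 10 tumors. In the glands the order was Jup, Perp, Pkp3, Dsg2, Pkp2, Dsc2, Pkp1, Dsp, Dsc3 and Dsg3, from 66.8 normalized cpm per kb to 0. Jup was above Perp in 2 of 3 glands, and Pkp1, Dsp and Dsc3 were close to each other, at 1.77, 1.59 and 1.54 normalized cpm per kb.

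The tumors differed among themselves by 2.18 to 5.98 times between the lowest and the highest, least for Pkp2 and most for Dsp. Tumor 7 was the highest tumor for 6 of the 10 members, Dsp, Jup, Pkp1, Pkp3, Dsg3 and Dsc3. For Dsp, Pkp1 and Dsg3 the next were tumors 3 and 4, and for Jup and Pkp3 tumors 3 and 6. Dsc2 and Perp followed another order. Tumor 1 was the highest for Dsc2, followed by tumors 9 and 5 at 163 and 143 normalized cpm, and tumor 9 was the highest for Perp, followed by tumors 7, 5 and 1 at 1569, 851 and 850. Tumor 6 was the lowest for both of these genes and the highest for Pkp2. Tumors of 1 mouse could differ as well. In the female with 3 tumors, Perp was at 500, 1631 and 729 normalized cpm in tumors 8, 9 and 10, and Dsp at 224, 275 and 197.

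**Figure D5:**
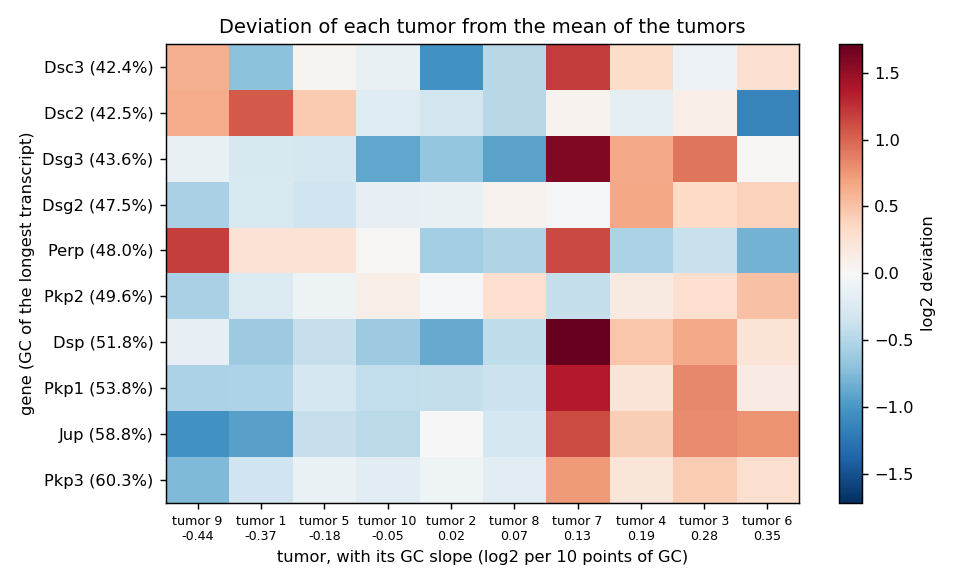
Deviation of each tumor from the mean of the 10 tumors on the log2 scale (red, higher; blue, lower), with genes ordered by the GC content of their longest transcript and tumors by their GC slope. Tumors 9, 1 and 5, at the left, are low for Jup and Pkp3 and high for Dsc2 and Perp, and tumor 7 is high for most genes.

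The GC content of the transcripts ran from 42.4% for Dsc3 to 60.3% for Pkp3. In tumors 1, 5 and 9, the 3 tumors with the steepest falling GC slope, the GC-poor Dsc2 was between 143 and 218 normalized cpm, above all of the other 7 tumors, which reached 113. The other GC-poor members did not follow. Dsc3 ran from 40.3 to 102 in tumors 1, 5 and 9 and from 31.9 to 153 in the others. Dsg3 had a median of 29.4 in tumors 1, 5 and 9 and of 36.2 in the others. Dsg2 in these 3 tumors was at most 52.2, below all of the others. For Jup, the member with the second highest GC content, the 3 tumors had a median of 119 and the others of 303. After a correction for GC content, the SD of the log2 level over the tumors was 0.28 for Pkp3 in place of 0.42, 0.56 for Jup in place of 0.75 and 0.49 for Dsc2 in place of 0.62. It was 0.59 for Pkp1 in place of 0.65, 0.29 for Pkp2 in place of 0.33 and 0.76 for Dsp in place of 0.78. It was larger after the correction for 4 members, at 0.91 for Dsg3 in place of 0.82, 0.71 for Dsc3 in place of 0.65, 0.38 for Dsg2 in place of 0.37 and 0.72 for Perp in place of 0.71. The same 7 genes were called higher after the correction, which was added after seeing the data, and the log2 fold change of Pkp3 was 1.26. Without tumor 1, tumor 9 and gland 3 the 7 were called as well, with Pkp3 at 1.04.

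Over the 10 tumors, the genes whose log2 level followed the mean of the members most closely were Trim29, Sdc1, Iffo2, Krt14 and Tmem19, with Pearson r between 0.949 and 0.972. This is a description over tumors of 6 mice that share the GC trend. On values corrected for GC content, 2 of these 5 were again among the first 5, Krt14 and Iffo2. For single members the closest genes were Lypd3 and Ybx3 for Dsp, Capn1 and Zc3hav1 for Jup, Ak4 and Iffo2 for Pkp1, Dmap1 and Dexi for Pkp2, Lad1 and Snx11 for Pkp3, Pofut1 and Ssbp3 for Dsg2, Efnb2 and Sdc1 for Dsg3, Thnsl1 and Spata6 for Dsc2, Ank and Slc39a6 for Dsc3, and Slc40a1 and Lgalsl for Perp. These r values ran from 0.946 for Slc39a6 to 0.987 for Capn1. After the correction for GC content, 2 of these 20 were again the closest genes of their member, Capn1 for Jup and Iffo2 for Pkp1.

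Other desmosomal and cornified junction genes were listed in 8 of 9 cases. Of the 6 past the filter, 4 were called higher and 0 lower, but Dsg1a, Dsc1 and Cdsn passed it through the tumors alone and had to differ. Dsg1a, a desmoglein of upper epidermal layers, ranged from 10.1 to 117 normalized cpm in the tumors and had 1 read in all glands together. Dsc1, the desmocollin of the same layers, ranged from 3.96 to 101 and had 0 reads in the glands, so that its mean was at least 93.4-fold higher. Cdsn, which encodes corneodesmosin of cornified layers, was at 48.9 ± 74.1 in the tumors (SD, n = 10) and 0.702 ± 0.091 in the glands (SD, n = 3). The plakin Ppl was at 131 ± 52.0 and 19.2 ± 9.89. The plakin Evpl (log2 fold change 1.53, adjusted p = 0.095, limma) and Pkp4, a relative of the plakophilins (0.71, adjusted p = 0.041, limma), were not called. Dsg1b and Dsg4 did not pass the filter. Reads of the close paralogs Dsg1a and Dsg1b may have been split between them, and their levels are uncertain.

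Adherens junction genes, a list of 12 that shares catenin partners with desmosomes, gave 3 called higher and 0 lower. These were P-cadherin, Cdh3, at 83.2 ± 33.9 normalized cpm in the tumors (SD, n = 10) and 15.7 ± 7.33 in the glands (SD, n = 3), Nectin1 and Plekha7. E-cadherin, Cdh1, was at 198 ± 64.0 and 125 ± 66.1 and was not called (log2 fold change 0.75, adjusted p = 0.13, limma). The median log2 fold change of the list was 0.77.

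Of 13 keratins, the filaments that desmosomes anchor, 10 were called higher and 0 lower, of which Krt6a, Krt6b, Krt16 and Krt1 passed the filter through the tumors alone. The median log2 fold change of the 13 in the fit without the filter was 3.32. Krt6a, Krt16 and Krt6b, keratins of activated stratified epithelium, had the largest fitted changes and were at 317, 179 and 85.8 normalized cpm in the tumors and at 0.094, 0.141 and 0.031 in the glands. The 3 not called were the simple keratins Krt8, Krt18 and Krt19, with log2 fold changes of 0.08, 0.22 and -0.48. Another simple keratin, Krt7, was called higher, at 230 normalized cpm in the tumors and 19.9 in the glands (log2 fold change 3.32, adjusted p = 1.76e-05, limma). Among 12 transcription factors of stratified epithelia, 8 were called higher and 0 lower, with a median of 1.33 and with Grhl3 past the filter through the tumors alone. Trp63, which encodes p63, was at 173 ± 53.3 normalized cpm in the tumors (SD, n = 10) and 25.2 ± 2.93 in the glands (SD, n = 3), Grhl3 at 15.2 ± 8.44 and 0.231 ± 0.117, and Klf4 at 112 ± 54.7 and 17.4 ± 2.95. Of 13 genes for the turnover of desmosomes and their signaling, 3 were called higher. They were the proteases Klk7 and Klk5, which cut corneodesmosomes, and their inhibitor Spink5, at a mean of 61.9 normalized cpm in the tumors and 1.65 in the glands. Klk7 ranged from 116 to 1158 and Klk5 from 3.21 to 41.8 in the tumors, and both had 0 reads in each gland. All 3 passed the filter through the tumors alone.

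Markers of some cell types differed between the groups, and those of others did so little or in both directions. Of 8 squamous markers past the filter, 4 passed it through the tumors alone and had to differ (Ivl, Sprr1a, Krtdap and Krt1), and 3 of the other 4 were called higher. The summed level of the 11 listed markers ran from 533 to 2769 normalized cpm in the tumors, highest in tumor 7, and from 71.0 to 86.7 in the glands. Sprr1a and Krtdap were at 268 and 270 normalized cpm in the tumors and at 0.029 and 0.366 in the glands, and Krt1, an early suprabasal keratin, at 21.1 and 0.083. Lor, a marker of the last layers, was at 1.79 ± 2.21 in the tumors (SD, n = 10) and did not pass the filter. Of 9 basal markers, 4 were called higher and 3 lower. Krt17 was among the first, at 459 against 10.1 normalized cpm, and the contractile gene Myh11 among the second, at 5.44 against 273. All 4 adipocyte markers past the filter and 9 of 10 endothelial markers were called lower. Adipocyte sums ran from 95.8 to 529 in the tumors and from 4288 to 11578 in the glands, and endothelial sums from 95.3 to 177 and from 408 to 783. The part of these cell types in the levels of the desmosome genes was not tested. Of 8 luminal markers past the filter, 1 was called lower (Elf5) and 0 higher. All 7 milk genes were called lower, and 1 of 7 macrophage markers was called higher. Skeletal muscle markers, of which 0 passed the filter, summed to 2760 normalized cpm in tumor 4 and to as little as 4.61 in tumor 2.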

How the data were processed

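RNA was sequenced from 10 tumors and 3 glands, grouped by the sample labels. The authors mapped paired-end reads to mm10 (Rsubread), counted reads over genes (featureCounts) and normalized the counts (edgeR). The strand setting is not given in the sources used here. The deposited signal values are reads divided by an effective library size (normalized cpm). In every library 100% of values were whole multiples of 1 read within 0.1 reads, and these recovered reads served edgeR and DESeq2 as alternatives. limma with a trend on log2(normalized cpm + 1) was fitted on all 13 libraries with condition as the term, after 3418 genes at 5 or less in the majority of libraries were left out. P-values were adjusted by Benjamini-Hochberg over 11795 genes. No library pair was identical. P-values treat the tumors as separate samples, although some share a mouse.

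Members and lists were chosen with earlier results of these data known. Named are all members, genes of the other desmosome and adherens junction lists, and of each further list up to 3 called genes with the largest change. Tsg101, Rn45s, Krt8, Krt18, Krt19, Lor and Ivl were named after their values were seen. Likeness was Pearson r over the tumors. Lists are described by counts and medians with no set test, and medians of lists take the fit without the filter. GC content and length come from the longest GENCODE M21 transcript, coordinates and promoters from RefSeq GRCm38.p6. Alternatives were another pseudocount, no filter, 3 scalings, both count tests, the mouse as a block or average, a replicate block, each library left out, the mouse with 3 tumors left out, and, chosen after seeing the data, a GC correction, leaving out tumors 1 and 9 with gland 3, and adjusting ratios over 5 pairs in place of 6. The scripts were tested on simulated data. R 4.3.3, limma 3.58.1, edgeR 4.0.16 and DESeq2 1.42.0 were used.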

Additional observations from a re-analysis of the deposited data

Results flagged for a closer look

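Dsp in tumor 7, at 998 normalized cpm, lay farther from the next tumor (476, tumor 3) than Dixon's limit for 10 samples allows. Its gap to that tumor was 0.628 of the range of the tumors. On log2(normalized cpm + 1) values, the scale of the fit, the gap was 0.415 of the range and within that limit. Chance alone flags about 1 in 20 groups, and 10 genes were looked at. Without tumor 7, Dsp was still called higher.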

How the results depend on the processing

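Dsg3, Dsp, Pkp1, Perp and Dsc2 were called higher under every alternative run. Of the 10 members, 7 were called higher in all but 3 settings: 6 with epithelial scaling, 6 without gland 3 and 5 with the replicate block. With the replicate block, Pkp3 (adjusted p = 0.267) and Dsc3 (0.101, limma) lost the call, while 362 genes were called higher and 182 lower over all genes, against 1204 and 825. Replicate numbers did not pair the samples: deviations of tumors and glands with the same number correlated at -0.579, 0.0447 and -0.664. Epithelial scaling called 1 member lower, Pkp2, and 606 genes higher and 2919 lower over all genes. Plain cpm without a further factor gave 1864 higher and 495 lower, with the median of all genes at 0.33. No filter gave 1603 higher and 1538 lower. A gene over 5 normalized cpm in the 3 glands alone cannot pass the filter, whereas one over 5 in the 10 tumors alone can. What else moved these counts was not tested. Members near 0 changed sign: Dsg2 was at 0.10 with plain cpm (and at -0.88 with epithelial scaling), and Jup at -0.31 with epithelial scaling and -0.083 without tumor 1, tumor 9 and gland 3. Leaving out 1 library each, Jup ranged from -0.33 to 0.79, Dsg2 from -0.69 to 0.12, Pkp3 from 0.91 to 1.42, Dsc3 from 2.37 to 4.22, and the Dsc3/Dsc2 ratio difference from -0.65 to 1.16. Calls over all genes then ranged from 977 to 1506 higher and from 659 to 1121 lower. The Pkp1/Pkp2, Pkp3/Pkp2, Pkp1/Pkp3 and Dsp/Jup ratios, run with the other pseudocount, the tumors of a mouse averaged, each library or the mouse with 3 tumors left out, the GC correction and the adjustment over 5 pairs, kept their call in each of these. With 3 glands, the design limits what can be said of Jup, Dsg2 and Pkp2.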
